A study of Danio rerio with 6 samples.

Results

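The genes described here are the cytokines and chemokines of the zebrafish and the receptors that bind them. Members were chosen by name alone: interleukins and their receptors, CC and CXC chemokines and their receptors, atypical chemokine receptors, interferons, class II cytokine receptors (crfb), TNF, TNF superfamily ligands and colony stimulating factor 3, with the IL-6 family receptor lifra. In all, 97 of the 12398 genes kept from the table are members, and all 97 were among the 12381 genes tested. They fall into 22 interleukins, interferons and colony stimulating factors, 11 TNF superfamily ligands, 26 chemokines, 28 cytokine receptors and 10 chemokine receptors.

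RNA was sequenced from full-thickness proximal (S1) intestine of adult male wild-type Ekk zebrafish, taken 2 weeks after surgery that modelled short bowel syndrome (SBS) or after sham surgery. SBS fish underwent laparotomy, creation of a proximal stoma, removal of the middle intestinal segments and ligation of the distal bowel, whereas sham fish had a laparotomy in which the bowel was not manipulated. In each group the samples with the most concentrated RNA were sequenced, so the libraries are not a random draw of the fish operated on. As many fish per group were taken for sequencing as there are labelled libraries, 3 in each, and p-values measure the spread between these libraries only.

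The deposited columns of SBS replicate 1 and SBS replicate 2 were equal in 12488 of 12488 rows and were counted as 1 library, which leaves 2 SBS and 3 sham libraries. SBS replicate 1 held 20377652 reads on genes and SBS replicate 3 held 38867364 reads, against 38728394 to 47142289 reads in the sham libraries. All counts of SBS replicate 1 were even, against about 50.3% in SBS replicate 3. Because the SBS libraries often differed, each is given on its own throughout. Levels are given as CPM, the reads on a gene relative to the total of its library, scaled by TMM, a normalization that assumes most genes are alike between libraries.

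Cytokines are secreted proteins through which immune and epithelial cells signal to each other, and most of them act through receptors that switch on JAK kinases and STAT factors. Chemokines are small secreted proteins that guide the movement of leukocytes through G protein-coupled receptors. In the gut, IL-1, IL-6 and TNF are known for acute inflammation, IL-22 for acting on the epithelium, and CCL19 for attracting lymphocytes and dendritic cells that carry CCR7.

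Of the 97 members, only ccl19a.1 was called by edgeR's quasi-likelihood test, with limits of 0.05 on the Benjamini-Hochberg adjusted p over all genes and of 1.5 on the size of the log2 fold change. It was higher in SBS, and across all genes tested 2.49% were called higher. In bulk tissue, here and in all later results, more cells of a type and more RNA per cell cannot be told apart, nor can fewer cells and less RNA. None was called lower, where 2.06% of all genes were. At an unadjusted p under 0.05 the same test gave 29 members higher, beside 15.7% of all genes, and 5 lower, beside 13.1%. Other tests on the same counts called more. The edgeR likelihood ratio test called 27 members higher and 4 lower, with 9.81% and 5.78% of all genes, and DESeq2's Wald test called 26 higher and 3 lower, with 9.5% and 5.77%. All 26 members called higher by DESeq2 were among the 27.

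Read library by library, SBS replicates 1 and 3 lay above every sham library for 30 members, or 30.9%, where 22.6% of all genes did so. Both lay below for 10 members, or 10.3%, where 24.3% of all genes did. The other 57 members overlapped. With 2 libraries against 3, the smallest two-sided exact permutation p for a single gene is 0.2, so such a gap carries no significance by itself. The median fitted log2 fold change was 0.87 over the members and 0.00 over all genes, with 67 members positive and 30 negative.

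The SBS libraries were unlike each other in these genes. On a log2(CPM + 0.5) scale, 34 members stood at least 1.5 above the sham mean in SBS replicate 1, beside 12.3% of all genes, and 10 did so in SBS replicate 3, beside 6.42%. Of the 97 members, 4 did so in both, beside 486 of the 12381 genes tested. At the low side, 11 members stood at least 1.5 below the sham mean in SBS replicate 1, beside 10.5% of all genes. In SBS replicate 3, 4 did so, beside 4.72%. Both libraries were that low for 2 members, beside 440 of the 12381 genes tested. SBS replicate 1 exceeded SBS replicate 3 by at least 1 on this scale for 40 members, or 41.2%, against 14.9% of all genes, and SBS replicate 3 exceeded SBS replicate 1 by as much for 27, or 27.8%, against 13.8%. For 35 members, or 36.1%, the SBS libraries lay on opposite sides of the sham mean, and 29.1% of all genes did the same. The median difference from the sham mean was 0.49 in SBS replicate 1 and 0.22 in SBS replicate 3.

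**Figure D1:**
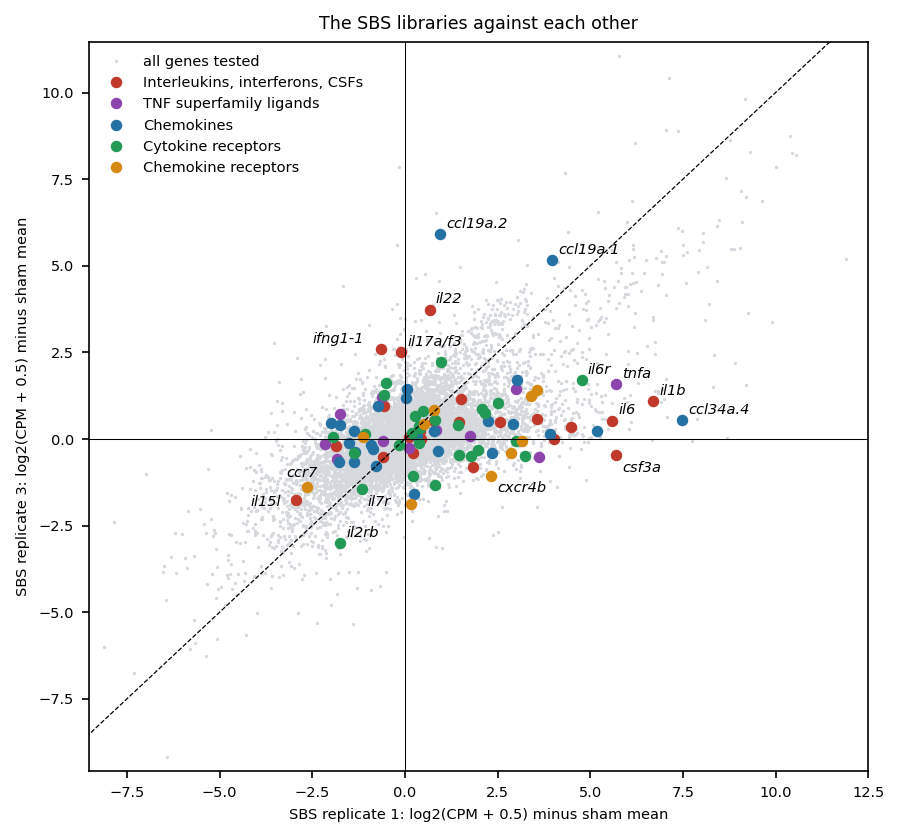
Each point is a gene, placed by its log2(CPM + 0.5) minus the sham mean in SBS replicate 1 (x axis) and in SBS replicate 3 (y axis), with members coloured by role, all genes tested in grey and the dashed line marking equal differences. The inflammatory cytokines il1b, il6, tnfa and csf3a lie far to the right and low, il22, ccl19a.2 and ifng1-1 lie high and near the vertical axis, and ccl19a.1 is high in both libraries.

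Among the cytokines of acute inflammation, il1b, the zebrafish interleukin 1 beta gene, had 284 CPM in SBS replicate 1 and 5.35 CPM in SBS replicate 3, against 1.25, 4.38 and 1.89 CPM in the sham libraries. Both SBS libraries lay above the sham range, SBS replicate 3 by little. The log2 fold change was 5.85 (SE 1.54, edgeR adjusted p = 0.083). It was 1.09 without SBS replicate 1 and 6.82 without SBS replicate 3.

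The il6 gene, whose product drives the acute phase response through il6st, had 24.5 and 0.252 CPM in SBS replicates 1 and 3, against 0, 0.0281 and 0.03 CPM in sham libraries. These sham levels rest on 2 counts in all, against 763 in SBS. The ratio of levels was 479 (95% exact binomial interval 132 to 3965, counting error only), and 750 of the SBS counts came from SBS replicate 1. All counts of that library were even, while the interval takes each count as a separate read, so the interval may be too narrow. The adjusted p was 0.0693 by edgeR's quasi-likelihood test.

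Both colony stimulating factor 3 genes, which encode the main growth factor of neutrophils, were at their highest in SBS replicate 1. For csf3b the levels were 12.1 and 0.213 CPM in SBS replicates 1 and 3, against 0.146, 0 and 0.06 CPM in sham (log2 fold change 6.42, SE 1.81, edgeR adjusted p = 0.0931). The fit without SBS replicate 1 gave 1.60. For csf3a, named after its values were seen, they were 37.8 and 0.0388 CPM, against 0.204, 0.225 and 0.3 CPM in sham. SBS replicate 3 thus lay below every sham library in csf3a, and leaving out SBS replicate 1 turned its log2 fold change of 6.26 into -2.55. Of 8 neutrophil markers tested, 7 were higher in SBS replicate 1 than in SBS replicate 3, and only mpx was lower. Among the 7, mmp9 had 2532 and 12 CPM in SBS replicates 1 and 3, against 4.51, 2.39 and 4.83 CPM in sham. The mpx gene had 286 and 11098 CPM, against 3.06, 8.21 and 3.96 CPM. The part of these cells was not tested.

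The subunit gene il12ba, which encodes the p40 chain that IL-12 shares with IL-23, showed the same split. It had 9.48 CPM in SBS replicate 1 and 0.116 CPM in SBS replicate 3, against 0.233, 0.0562 and 0.06 CPM in sham. SBS replicate 3 lay within the sham range, and the log2 fold change was 5.32 (edgeR adjusted p = 0.112), or 0.00 without SBS replicate 1. The gene was named after its values were seen.

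Anti-inflammatory il10, which restrains macrophage activation in mammals, was the interleukin with the closest SBS values among those named. It had 1.90 and 1.38 CPM in SBS replicates 1 and 3, against 0.233, 0.309 and 0.51 CPM in sham, so the groups did not overlap at a low level. Its log2 fold change was 2.21 (SE 0.57, edgeR adjusted p = 0.0824), with 1.97 without SBS replicate 1 and 2.42 without SBS replicate 3.

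The genes of interferon gamma, a cytokine that activates macrophages, split in opposite directions between the SBS libraries. Levels of ifng1-2 were 6.21 and 0.349 CPM in SBS replicates 1 and 3, against 0.0583, 0.0562 and 0.09 CPM in sham (log2 fold change 5.52, SE 1.27, edgeR adjusted p = 0.0694). Levels of its neighbour ifng1-1, an interferon gamma related gene of fish, were 0.915 and 12.9 CPM, against 1.05, 2.42 and 1.89 CPM in sham. SBS replicate 1 lay below all sham libraries in ifng1-1 and above all of them in ifng1-2. For ifng1-1 the log2 fold change was 1.95 (edgeR adjusted p = 0.256), 2.85 without SBS replicate 1 and -0.96 without SBS replicate 3. In the current zebrafish annotation of RefSeq these genes are listed as ifng1r (ifng1-1) and ifng1 (ifng1-2).

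In the same gene neighbourhood lies il22, with 1 protein-coding gene between it and ifng1-1. It encodes an IL-10 family cytokine that acts on epithelial cells, and had 0.392 and 6.96 CPM in SBS replicates 1 and 3, against 0.0291, 0.169 and 0 CPM in sham. The groups did not overlap, and SBS replicate 3 was the high library. The fitted log2 fold change was 5.72 (SE 1.56, edgeR adjusted p = 0.0882), 6.63 without SBS replicate 1 and 2.49 without SBS replicate 3. A member of the IL-17 family, il17a/f3, had 0.653 and 6.54 CPM in SBS replicates 1 and 3, against 0.32, 1.83 and 0.48 CPM in sham. SBS replicate 1 was within the sham range, and leaving out SBS replicate 3 turned its log2 fold change of 2.04 (edgeR adjusted p = 0.284) into -0.42.

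On the low side, il15l, an IL-15-like gene, had 3.53 and 8.63 CPM in SBS replicates 1 and 3, against 23.4, 32.1 and 36.9 CPM in sham. Both SBS libraries lay clear of the sham range. The difference, as a log2 fold change, was -2.34 (SE 0.48, edgeR adjusted p = 0.056), and neither SBS library alone turned its sign. The table annotates the row as antisense, and the strand setting of the counting was not given in the sources used here, so reads of a partner gene on the other strand cannot be told apart. Related il15, a survival factor of natural killer cells and memory T cells in mammals, had 2.16 and 7.95 CPM in SBS replicates 1 and 3, against 10.9, 8.07 and 8.73 CPM in sham, with SBS replicate 3 just under the lowest sham library. The type I interferon gene ifnphi2 had 1 count in SBS and 27 in sham, a ratio of levels of 0.0465 (95% interval 0.00114 to 0.282). Its neighbour ifnphi3 had 12 counts in SBS and 3 in sham, a ratio of 5.03 (1.36 to 27.8). These intervals hold counting error only and leave out the spread between libraries. They take each count as a separate read, although all counts of SBS replicate 1 were even, and so may be too narrow. The edgeR adjusted p was 0.135 for ifnphi2 and 0.253 for ifnphi3. Over the 22 genes of this class 18 fitted log2 fold changes were positive and 4 negative, with none called.

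Among the TNF superfamily ligands, tnfa, a central inflammatory cytokine of macrophages, had 58.2 CPM in SBS replicate 1 and 2.91 CPM in SBS replicate 3, against 0.495, 0.646 and 0.78 CPM in sham. Both SBS libraries were well above the sham range. The log2 fold change was 5.57 (SE 1.19, edgeR adjusted p = 0.0608), 2.18 without SBS replicate 1 and 6.5 without SBS replicate 3. The second TNF gene, tnfb, had 57.3 and 2.79 CPM in SBS replicates 1 and 3, against 3.52, 5.28 and 3.99 CPM in sham. Here SBS replicate 3 was below every sham library, and the fit without SBS replicate 1 gave a log2 fold change of -0.61 in place of 2.81.

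The B cell survival factor gene tnfsf13b (BAFF) had 13.2 and 4.17 CPM in SBS replicates 1 and 3, against 0.67, 2.28 and 1.08 CPM in sham. The groups did not overlap, and the log2 fold change was 2.69 (SE 0.71, edgeR adjusted p = 0.0838). Its relative tnfsf13 had 17 counts in SBS and 0 in sham, a level of 0.392 and 0.097 CPM in SBS replicates 1 and 3. With the sham libraries together given 3 counts, the ratio of levels was 7.12. That ratio is not a firm lower bound, since it takes the SBS counts as exact. Of these, 12 came from SBS replicate 1, whose counts were all even. With 0 counts in sham, the gene could reach the minimum count for testing only through its SBS counts. The ratio also leaves out the spread between libraries, and the edgeR adjusted p was 0.126.

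The most abundant TNF superfamily genes in CPM were relatives of TRAIL, a ligand of death receptors. For tnfsf10l the levels were 25.2 and 104 CPM in SBS replicates 1 and 3, against 143, 82.1 and 127 CPM in sham, and for tnfsf10 they were 28.3 and 100.4 CPM, against 52.9, 52.4 and 29.4 CPM. In both genes SBS replicate 1 lay below all sham libraries, while SBS replicate 3 lay within the sham range in tnfsf10l and above it in tnfsf10. The log2 fold changes were -0.86 for tnfsf10l and 0.52 for tnfsf10 (edgeR adjusted p = 0.407 and 0.585).

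**Figure D2:**
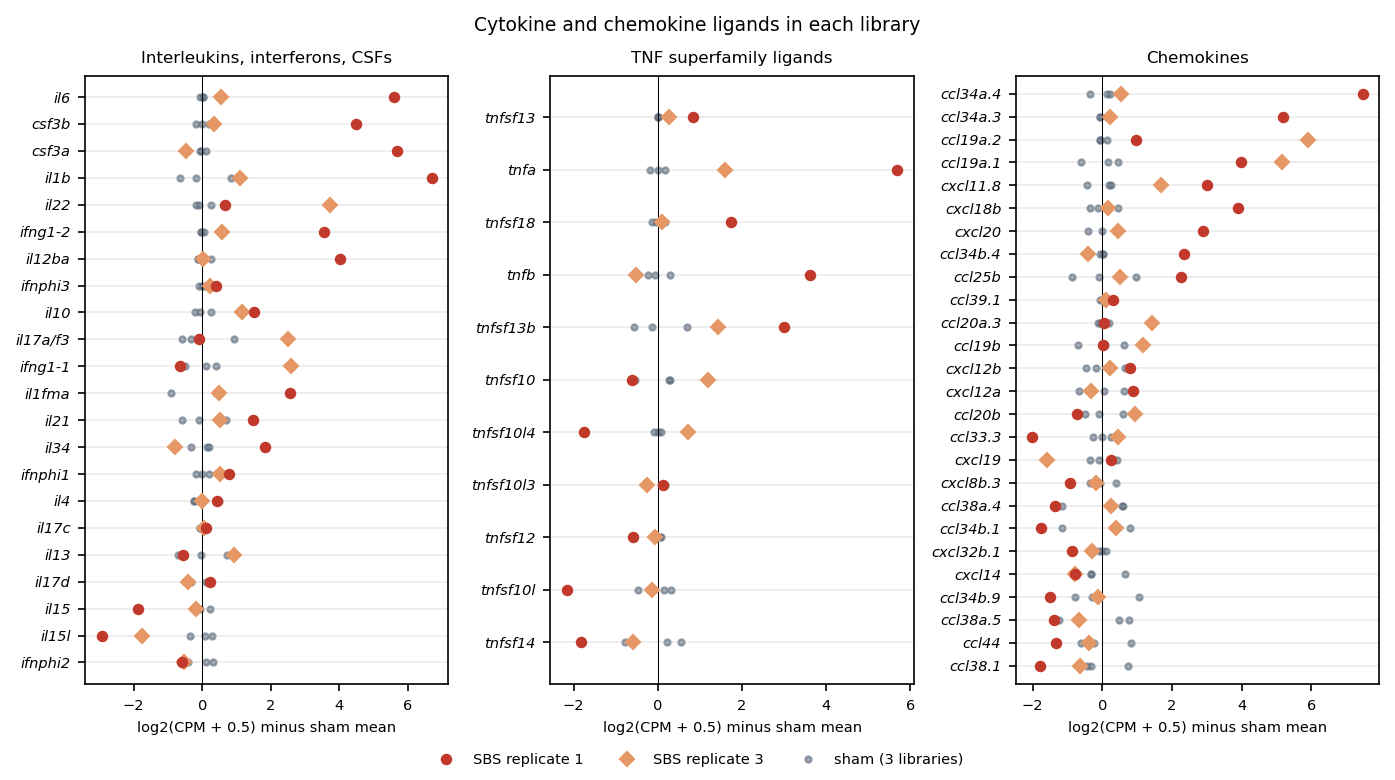
Each row is a ligand gene, and points give log2(CPM + 0.5) minus the sham mean (x axis) for SBS replicate 1 (circles), SBS replicate 3 (diamonds) and the 3 sham libraries (small grey points), in 3 panels by role. Most of the large differences belong to SBS replicate 1, and il22, ifng1-1, il17a/f3, ccl19a.2 and ccl19a.1 are the genes whose diamond stands farthest to the right.

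Chemokines held the single called member. The ccl19a.1 gene (Ensembl ENSDARG00000058389, chromosome 5), 1 of 3 zebrafish relatives of CCL19 in the table, had 129 CPM in SBS replicate 1 and 295 CPM in SBS replicate 3, against 4.89, 10.7 and 8.70 CPM in sham. Both SBS libraries stood far above the sham range. The mean was 212 ± 117 CPM in SBS (SD, n = 2) and 8.09 ± 2.94 CPM in sham (SD, n = 3). It rose in SBS by 4.71 on the log2 scale (SE 0.53, edgeR adjusted p = 0.019), with 5.19 without SBS replicate 1 and 4.0 without SBS replicate 3. Both of these were called. Without sham replicate 1, 2 or 3 the log2 fold changes were 4.45, 5.0 and 4.78, but the adjusted p was 0.0775, 0.0833 and 0.105, and no gene of the table was called in any of these fits.

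Next to it on chromosome 5, with 0 protein-coding genes between, ccl19a.2 had 3.72 and 130 CPM in SBS replicates 1 and 3, against 1.57, 1.91 and 1.56 CPM in sham. The groups did not overlap, but SBS replicate 1 exceeded the sham range by little. Its log2 fold change was 5.31 (SE 1.30, edgeR adjusted p = 0.0753), 6.27 without SBS replicate 1 and 1.15 without SBS replicate 3. Tandem copies such as these can share reads, so their separate counts are uncertain. The third relative, ccl19b on chromosome 10, had 233 and 515 CPM in SBS replicates 1 and 3, against 242, 350 and 140 CPM in sham, and the groups overlapped (log2 fold change 0.61, edgeR adjusted p = 0.48).

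Per length, in the RPKM values deposited by the authors, ccl19b and ccl19a.1 were the members with the highest mean levels in SBS. The SBS means were 533 RPKM for ccl19b and 532 RPKM for ccl19a.1, and the sham means were 342 RPKM and 19.9 RPKM. In sham, ccl38a.4 came after ccl19b with 90.8 RPKM. Thus ccl19a.1 stood level with ccl19b in SBS and at a small part of it in sham.

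The receptor of CCL19, ccr7, which guides lymphocytes and dendritic cells, differed in the other direction. It had 0.719 and 2.41 CPM in SBS replicates 1 and 3, against 10.8, 6.69 and 4.89 CPM in sham, with no overlap. The fitted log2 fold change was -2.24 (SE 0.67, edgeR adjusted p = 0.103), -1.63 without SBS replicate 1 and -3.37 without SBS replicate 3.

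A pair of tandem CC chemokine genes on chromosome 2 was almost confined to SBS replicate 1 in these 5 libraries. The ccl34a.4 gene had 120 and 0.485 CPM in SBS replicates 1 and 3, against 0.0291, 0.281 and 0.24 CPM in sham (log2 fold change 8.33, SE 2.14, edgeR adjusted p = 0.081), and 1.39 without SBS replicate 1. For ccl34a.3 they were 18.8 and 0.116 CPM, against 0, 0.0843 and 0 CPM. The 580 SBS counts of ccl34a.3 stood against 3 in sham, a ratio of levels of 243 (95% interval 82.7 to 1181, counting error only). As for il6, the interval may be too narrow, since all counts of SBS replicate 1 were even. The edgeR adjusted p of ccl34a.3 was 0.0879. The table annotates both rows as processed transcripts, and reads shared between the copies would make the separate counts uncertain.

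Some CXC chemokines were also highest in SBS replicate 1. The neutrophil attractant cxcl18b had 172 and 12.3 CPM in SBS replicates 1 and 3, against 10.1, 8.54 and 15.2 CPM in sham (log2 fold change 3.03, edgeR adjusted p = 0.116). SBS replicate 3 was within the sham range, and the value without SBS replicate 1 was 0.12. In cxcl20, SBS replicate 1 had 25.9 CPM and SBS replicate 3 had 4.29 CPM, against 3.00, 2.16 and 4.20 CPM in sham (log2 fold change 2.27, edgeR adjusted p = 0.12).

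Levels of cxcl11.8, named for a ligand that binds CXCR3 in mammals, were less split: 8.30 and 3.03 CPM in SBS replicates 1 and 3, against 0.786, 0.759 and 0.3 CPM in sham. Both SBS libraries stood clear of sham. The difference, as a log2 fold change, was 3.19 (SE 0.66, edgeR adjusted p = 0.0561), 2.29 without SBS replicate 1 and 3.75 without SBS replicate 3. Other CXC genes were not highest there: cxcl8b.3 had 7.12 and 12.3 CPM in SBS replicates 1 and 3, against 10.9, 13.4 and 18.5 CPM in sham, and cxcl19 had 39.9 and 10.8 CPM, against 45.6, 31.3 and 26.4 CPM. Over the 26 chemokines, both SBS libraries lay above sham for 7, or 26.9%, beside 22.6% of all genes, and below sham for 3, or 11.5%, beside 24.3%, and the median log2 fold change was 0.39. Homeostatic cxcl14 was among the 3 below, with 11.7 and 11.6 CPM in SBS replicates 1 and 3, against 16.2, 16.2 and 32 CPM in sham.

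Of the chemokine receptors, 3 rows on chromosome 16 carry cxcr3 names, which stand for receptors of interferon-induced chemokines. The row deposited as cxcr3.1 is listed now as si:dkey-250k15.8, so its identity and its place beside the others are uncertain. The deposited name is kept here. The cxcr3.2 gene had 88.1 and 19.2 CPM in SBS replicates 1 and 3, against 3.61, 12.5 and 7.20 CPM in sham, with no overlap (log2 fold change 2.79, SE 0.77, edgeR adjusted p = 0.0895). For cxcr3.3 the levels were 34.4 and 3.28 CPM, against 3.41, 3.23 and 3.60 CPM, and for cxcr3.1 they were 24.0 and 2.06 CPM, against 3.93, 2.47 and 2.40 CPM. In cxcr3.3 and cxcr3.1 SBS replicate 3 was within the sham range or below it. Reads shared between these genes would make the separate counts uncertain. The ccr12a gene had 18.6 and 3.74 CPM in SBS replicates 1 and 3, against 0.728, 2.67 and 0.99 CPM in sham (log2 fold change 2.92, SE 0.85, edgeR adjusted p = 0.0988).

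The receptor cxcr4b, which binds CXCL12 and retains leukocytes in tissues, was the only member whose SBS libraries lay at least 1 on the log2 scale above and below the sham mean. It had 139 CPM in SBS replicate 1 and 12.9 CPM in SBS replicate 3, against 17.0, 31.98 and 37.8 CPM in sham. SBS replicate 1 lay above and SBS replicate 3 below every sham library. The log2 fold change of 1.4 (edgeR adjusted p = 0.354) was -1.16 without SBS replicate 1 and 2.27 without SBS replicate 3. The gut-homing receptor ccr9a, known in mammals as the receptor of CCL25, had 84.4 and 20.02 CPM in SBS replicates 1 and 3, against 52.3, 79.7 and 99.96 CPM in sham. Its log2 fold change was -0.57 (edgeR adjusted p = 0.593), with SBS replicate 1 inside the sham range.

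Both chains of the IL-6 receptor were higher in each SBS library than in any sham library. The ligand-binding chain il6r had 173 and 20.2 CPM in SBS replicates 1 and 3, against 3.73, 10.7 and 4.98 CPM in sham (log2 fold change 3.90, SE 0.95, edgeR adjusted p = 0.0741), 1.64 without SBS replicate 1. The shared signalling chain il6st (gp130), named after its values were seen, had 60.9 and 21.8 CPM, against 11.2, 10.1 and 9.66 CPM in sham. Its log2 fold change was 2.00 (SE 0.45, edgeR adjusted p = 0.0656), 1.08 without SBS replicate 1 and 2.56 without SBS replicate 3. Neither receptor gene passed the test. Related lifra had 5.82 and 1.16 CPM in SBS replicates 1 and 3, against 2.88, 1.07 and 1.74 CPM in sham, and overlapped.

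Decoy and scavenging receptors did not share a pattern. The IL-13 decoy receptor gene il13ra2 had 132 and 9.49 CPM in SBS replicates 1 and 3, against 9.79, 11.1 and 22.1 CPM in sham, so SBS replicate 3 was just below the sham range and the fit without SBS replicate 1 gave -0.59 in place of a log2 fold change of 2.30. The gene of the soluble IL-22 binding protein, il22ra2, had 5.88 and 14.7 CPM, against 0.845, 5.73 and 3.54 CPM in sham. Like il22 it was highest in SBS replicate 3 (log2 fold change 1.61, edgeR adjusted p = 0.244). The atypical chemokine receptor gene ackr3b had 13.3 and 12.7 CPM, against 5.80, 11.6 and 11.6 CPM in sham, nearly equal between the SBS libraries. These genes were named after their values were seen.

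In the IL-10 receptor, the ligand-binding chain il10ra had 86.7 and 9.97 CPM in SBS replicates 1 and 3, against 9.47, 10.1 and 11.4 CPM in sham, with SBS replicate 3 inside the sham range. Its partner il10rb, which also serves IL-22, had 64.7 and 63.6 CPM, against 90.1, 53.4 and 76.7 CPM in sham, and the groups overlapped (log2 fold change -0.19, edgeR adjusted p = 0.709). The epithelial receptor gene il20ra, the other abundant cytokine receptor, had 27.8 and 113 CPM, against 129, 124 and 80.1 CPM in sham (log2 fold change -0.66). Its sign rested on SBS replicate 1, since the value without that library was 0.02. The il20ra row is annotated as a retained intron transcript.

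The receptor genes il2rb and il7r had lower levels in both SBS libraries than in any sham library. The IL-2 and IL-15 receptor beta chain gene il2rb had 5.03 and 1.78 CPM in SBS replicates 1 and 3, against 18.4, 14.2 and 22.1 CPM in sham. The log2 fold change was -2.43 (SE 0.53, edgeR adjusted p = 0.0635), -3.35 without SBS replicate 1 and -1.86 without SBS replicate 3. Without sham replicate 1, 2 or 3 the log2 fold change was -2.42, -2.53 and -2.23, at an edgeR adjusted p of 0.189, 0.141 and 0.193. The row is annotated as a retained intron transcript.

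The IL-7 receptor gene il7r, which T lymphocytes need for survival, had 14.4 and 11.8 CPM in SBS replicates 1 and 3, against 31.6, 36.6 and 31.1 CPM in sham. With TMM scaling the groups were far apart relative to their spread, with means of 13.1 ± 1.85 CPM in SBS (SD, n = 2) and 33.1 ± 3.05 CPM in sham (SD, n = 3). Its log2 fold change was -1.34 (SE 0.25) at an edgeR adjusted p of 0.0467, past the p threshold but short of the fold limit, so it was not called. With DESeq2 size factors in place of TMM, the same edgeR test gave -1.28 and an adjusted p of 0.0543. Other receptor genes of lymphocyte cytokines had other patterns. The IL-4 receptor gene il4r.1 had 18.8 and 7.86 CPM in SBS replicates 1 and 3, against 3.52, 6.24 and 3.00 CPM in sham, with no overlap, and the IL-21 receptor gene il21r.1 had 53.3 and 25.8 CPM, against 11.7, 27.3 and 23.4 CPM. The shared gamma chain gene il2rga had 39.9 and 7.89 CPM in SBS replicates 1 and 3, against 10.7, 13.6 and 10.02 CPM in sham, whereas il2rgb had 1.70 and 1.09 CPM, against 1.14, 1.38 and 1.11 CPM. In il2rga and il2rgb SBS replicate 3 lay below all sham libraries and SBS replicate 1 above them.

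**Figure D3:**
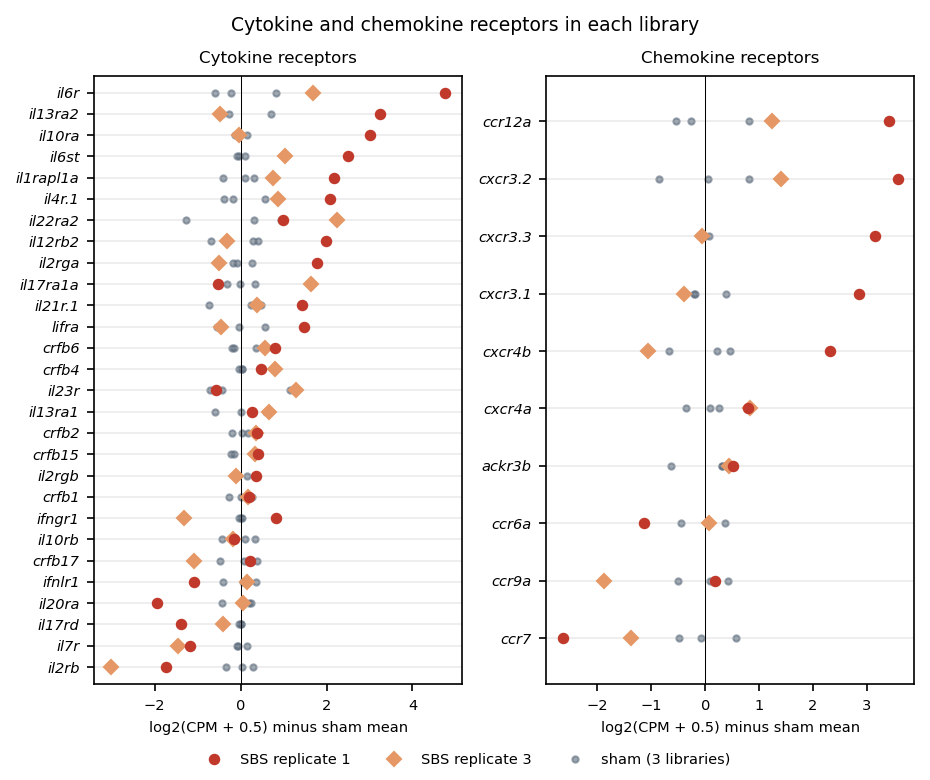
Each row is a receptor gene, and points give log2(CPM + 0.5) minus the sham mean (x axis) for SBS replicate 1 (circles), SBS replicate 3 (diamonds) and the 3 sham libraries (small grey points). The il6r, cxcr3 and il13ra2 genes stand out in SBS replicate 1, while il2rb, il7r and ccr7 lie left of all sham points in both SBS libraries.

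**Figure D4:**
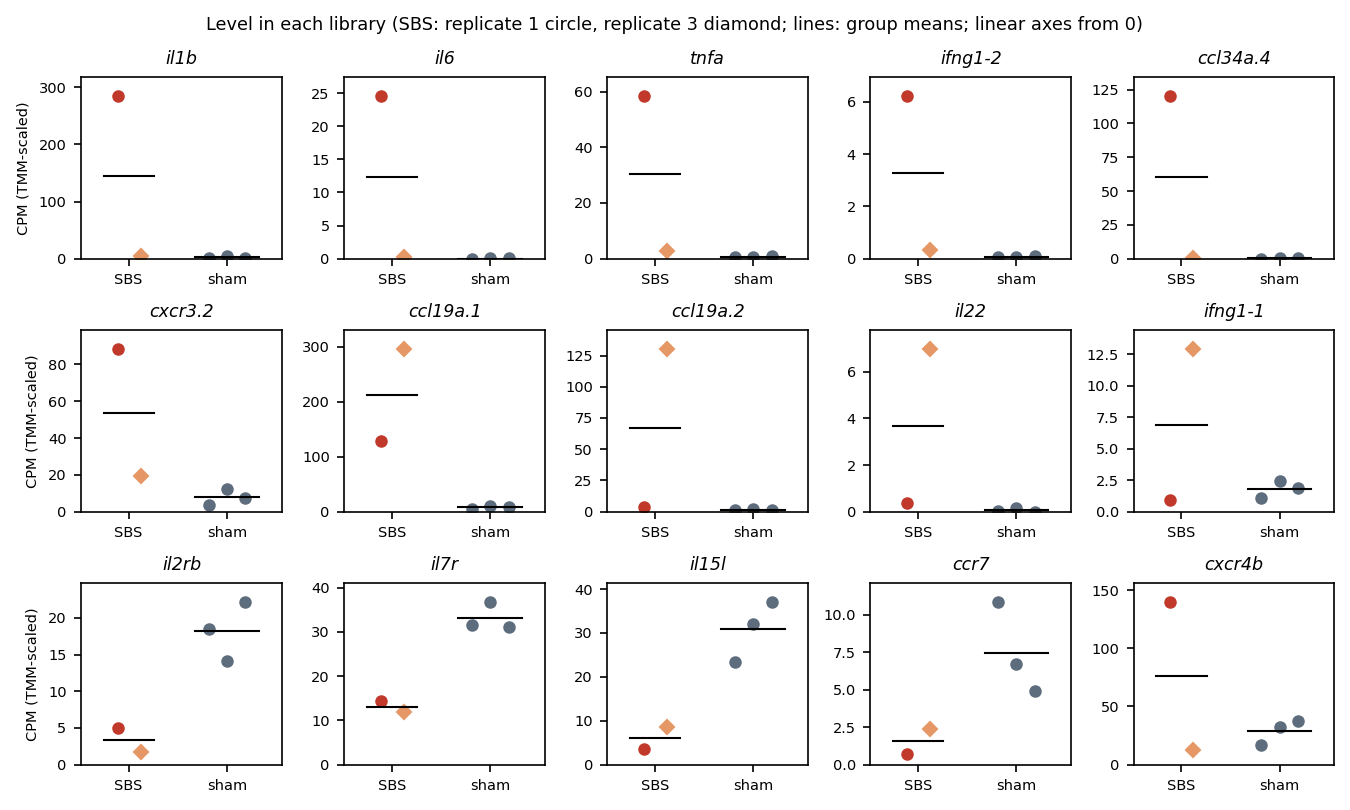
Levels in CPM (y axis, linear from 0) of 15 members in each library, with SBS replicate 1 as a circle, SBS replicate 3 as a diamond, sham libraries as grey circles and lines at the group means. The upper row and cxcr3.2 show genes at their highest in SBS replicate 1 (il1b at 284 CPM), ccl19a.2, il22 and ifng1-1 are highest in SBS replicate 3, and il2rb, il7r, il15l and ccr7 show both SBS libraries below every sham library.

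Receptors of interferons and of the IL-10 family varied in how far they differed. The crfb4 gene had 43.0 and 54.1 CPM in SBS replicates 1 and 3, against 29.6, 31.1 and 31.1 CPM in sham (log2 fold change 0.67, SE 0.23, edgeR adjusted p = 0.134). For crfb6, listed now as ifngr2, the levels were 75.2 and 63.6 CPM, against 38.7, 54.9 and 37.0 CPM (log2 fold change 0.67, edgeR adjusted p = 0.183). The neighbours crfb1 and crfb2 had log2 fold changes of 0.18 and 0.39, and the SBS libraries were nearly equal in each. The gene deposited as ifngr1 is listed now as ifngr1l, and crfb17 is listed now as ifngr1. The deposited names are kept here. The ifngr1 row had 39.6 and 8.55 CPM in SBS replicates 1 and 3, against 21.5, 22.7 and 22.4 CPM in sham, above and below every sham library. For crfb17 the levels were 47.4 and 18.9 CPM, against 53.2, 43.0 and 29.0 CPM (log2 fold change -0.33, edgeR adjusted p = 0.682). On the log2(CPM + 0.5) scale crfb17 differed from the sham mean by -1.08 in SBS replicate 3 and ifnlr1 by -1.09 in SBS replicate 1. Larger differences in this family were -1.33 for ifngr1 in SBS replicate 3 and those of il10ra, il22ra2 and il20ra, whose levels are given earlier. Over the 28 cytokine receptors, 21 fitted log2 fold changes were positive and 7 negative, none was called, and the median was 0.55.

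Leaving out an SBS library changed which members were called. Without SBS replicate 1, edgeR's quasi-likelihood test called ccl19a.1, ccl19a.2, ifng1-1 and il22 higher, 4.26% of the members tested beside 2.69% of all genes, and il2rb lower, 1.06% beside 1.86%. Without SBS replicate 3 it called 32 members higher, 33.3% beside 10.5% of all genes, and 9 lower, 9.38% beside 8.35%. The lists shared 1 gene on the higher side, ccl19a.1, and 1 on the lower side, il2rb. Of the 94 members tested in both fits, 36 had log2 fold changes of opposite sign. The same share over all genes is not given here. By the related measure above, the SBS libraries lay on opposite sides of the sham mean for 36.1% of members and 29.1% of all genes. In each of these fits the lone SBS library was assumed to vary as the sham libraries did.

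Other genes of the same pathways gave the setting for the members. Of 29 receptors and ligands of the same families outside the naming rule, 18 were tested and none was called by edgeR's quasi-likelihood test. At an unadjusted p under 0.05 that test gave 9 higher and 0 lower, beside 15.7% and 13.1% of all genes. DESeq2 called 8 higher, beside 9.5% of all genes, and the likelihood ratio test 8, beside 9.81%. The CSF1 receptor gene csf1ra had 338 and 24.4 CPM in SBS replicates 1 and 3, against 8.27, 15.9 and 12.5 CPM in sham, and the CSF3 receptor gene csf3r had 70.3 and 0.95 CPM, against 0.233, 1.41 and 0.3 CPM. The most abundant gene of this list, tnfrsf1a, a TNF receptor, had 149 and 123 CPM in SBS, against 58.4, 73.7 and 54.5 CPM in sham (log2 fold change 1.13, edgeR adjusted p = 0.0731). Of 25 receptor-proximal signalling genes 16 were tested and none was called. At an unadjusted p under 0.05, 4 were higher and 0 lower, and each of the other tests called 2 higher. The shares of all genes are those just given. The stat3 gene, which acts below IL-6 and IL-22 receptors, had 90.0 and 367 CPM in SBS replicates 1 and 3, against 106, 115 and 64.0 CPM in sham, and its relative stat4 had 36.7 and 208 CPM, against 41.4, 44.5 and 24.5 CPM. Both were high in SBS replicate 3 alone. Most of this list went the other way: 13 of the 16 genes tested were higher in SBS replicate 1 than in SBS replicate 3, all but stat3, stat4 and jak2a. The most abundant, stat2, had 398 and 96.6 CPM in SBS replicates 1 and 3, against 210, 190 and 87.2 CPM in sham. Levels of stat1b were 335 and 42.8 CPM, against 32.1, 36.1 and 41.0 CPM.

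Feedback and target genes of cytokine signalling included 7 that were called higher of 25 tested, with none lower, beside 2.49% and 2.06% of all genes. Both socs1b and socs3b, which encode inhibitors of JAK and STAT signalling, were among them. The socs2 gene of this list was lower in both SBS libraries than in any sham library (log2 fold change -2.23, edgeR adjusted p = 0.0766). The likelihood ratio test and DESeq2 each called 16 of the 25 genes higher and 1 lower. The shares of all genes for these tests are those given earlier. The socs1b gene had 31.5 and 22.1 CPM in SBS replicates 1 and 3, against 6.26, 4.81 and 6.0 CPM in sham (log2 fold change 2.24, SE 0.29, edgeR adjusted p = 0.0233), and socs3b had 241 and 95.8 CPM, against 16.3, 20.6 and 35.6 CPM (2.80, SE 0.53, adjusted p = 0.0456). Interferon-induced mxc and gbp1 rose by 5.48 and 3.07 on the log2 scale (edgeR adjusted p = 0.03 and 0.0365), and irf8, a transcription factor of myeloid cells, by 3.19 (adjusted p = 0.0233). Other interferon-induced genes did not all follow. On the log2(CPM + 0.5) scale isg15 and rsad2 differed from the sham mean by 4.09 and 3.57 in SBS replicate 1. In SBS replicate 3 they differed by -1.38 and -1.95, below every sham library. The mxa gene lay above every sham library in both SBS libraries. The irg1l gene had 88.2 and 858 CPM in SBS replicates 1 and 3, against 0, 0.506 and 0 CPM in sham (log2 fold change 11.40, edgeR adjusted p = 0.0382). The acute phase gene saa had 790 and 8.01 CPM, against 0.262, 0.45 and 0.27 CPM (10.23, adjusted p = 0.0465). Both genes lay above every sham library in both SBS libraries, with saa higher in SBS replicate 1 and irg1l higher in SBS replicate 3.

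Marker genes of cell types differed between the same libraries. Over all genes tested, 2.49% were called higher and 2.06% lower, and DESeq2 called 9.5% higher. Both SBS libraries lay above every sham library for 22.6% of all genes and below for 24.3%. Of 8 neutrophil markers tested only mpx was called, and the summed level was 4814 CPM in SBS replicate 1 and 11356 CPM in SBS replicate 3, against 150 to 282 CPM in sham. In SBS replicate 3 mpx alone made up 11098 CPM of that sum. Apart from mpx, the other 7 markers were all higher in SBS replicate 1 than in SBS replicate 3. Among them, mmp9, csf3r and lyz had 12, 0.95 and 3.74 CPM in SBS replicate 3, against 2532, 70.3 and 73.1 CPM in SBS replicate 1. Of 11 macrophage markers, mpeg1.2 and ctss2.2 were called higher, and the sum was 4580 and 3883 CPM in SBS, against 2077 to 5403 CPM in sham. That sum was largely cd74a and cd74b, and the other 9 macrophage markers summed to 2190 and 586 CPM in SBS, against 178 to 309.9 CPM in sham. For 8 of the 11 both SBS libraries lay above sham, the median log2 fold change was 2.33, and DESeq2 called 8 higher. The 7 pan-leukocyte markers summed to 1635 and 789 CPM in SBS, against 390 to 601 CPM in sham, with none called. The 13 T and NK lymphocyte markers, none called, summed to 122 and 125 CPM in SBS, against 116 to 220 CPM in sham, with a median log2 fold change of -0.26, beside -2.43 for il2rb, -1.34 for il7r and -2.24 for ccr7. The T cell genes itk, tcf7 and lck lay below all sham libraries in both SBS libraries, with log2 fold changes of -1.40, -1.12 and -0.93. They were 23.1% of these markers, beside 24.3% of all genes. Of the 13 markers 6 had positive and 7 negative log2 fold changes. The T cell genes cd4-1 (0.43), zap70 (-0.26) and gata3 (-0.32) overlapped with sham. The values of nkl.4 (5.50) and eomesa (2.61) were positive, with only SBS replicate 1 above sham. For nkl.4 the levels were 19.3 and 0.155 CPM in SBS replicates 1 and 3, against 0.0291, 0.365 and 0.24 CPM in sham. For eomesa they were 2.16 and 0.0388 CPM, against 0.32, 0.112 and 0.09 CPM. No T and NK marker was at 0 in SBS.

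Tissue markers differed too, and the shares of all genes given for the cell type markers apply to them as well. The 13 hepatocyte markers summed to 19911 and 4353 CPM in SBS replicates 1 and 3, against 38.1 to 60.1 CPM in sham, and 12 were called higher. The 11 absorptive enterocyte markers summed to 10274 and 26364 CPM in SBS, against 87841 to 131711 CPM in sham, all 11 with both SBS libraries below sham, none at 0 in any library, and chia.2 called lower. Type I collagen genes col1a1a, col1a1b and col1a2 were called higher among 7 fibroblast markers. The part of these tissues and cells in the differences of the members was not tested.

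**Figure D5:**
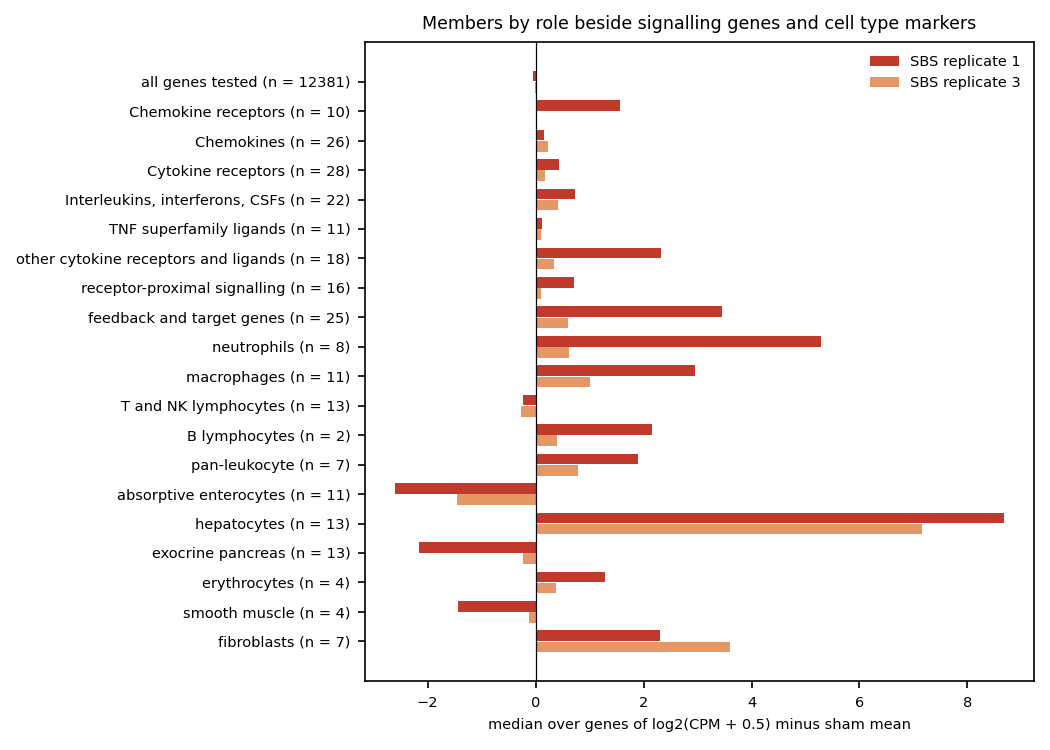
Bars give the median over genes of log2(CPM + 0.5) minus the sham mean (x axis) in SBS replicate 1 and SBS replicate 3, for the members by role, for other cytokine signalling genes and for cell type markers, with the number of genes tested in brackets. Feedback genes and neutrophil markers stand higher in SBS replicate 1 than in SBS replicate 3, chemokine receptors are raised in median in SBS replicate 1 alone (1.56 against 0.01 in SBS replicate 3), and hepatocyte markers are high in both.

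The remaining members were mostly low or overlapping. Of the 97, 8 never reached 1 CPM in any library, and the median of the members' mean levels was 8.27 CPM, against 12.4 CPM over all genes tested. Low genes carry few counts, and for them a difference of several-fold may not be detectable at this depth. A level of 1 count corresponds to 0.0327 CPM in SBS replicate 1 and 0.0194 CPM in SBS replicate 3, against 0.0281 to 0.03 CPM in the sham libraries. Since all counts of SBS replicate 1 were even, its smallest step was 2 counts, or 0.0653 CPM. Among the chemokines of ordinary tissue, cxcl12a had 64.8 and 27.5 CPM in SBS replicates 1 and 3, against 36.3, 21.5 and 53.8 CPM in sham (log2 fold change 0.31, edgeR adjusted p = 0.728), and the type 2 cytokine genes il4 and il13 had log2 fold changes of 0.56 and 0.32 (adjusted p = 0.774 and 0.811). The il13 row is annotated as a nonsense-mediated decay transcript.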

How the data were processed

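Reads from 3 SBS and 3 sham columns were, according to the study's methods, trimmed with Trimmomatic, aligned with STAR and counted with HTSeq by the authors. The methods name the build danRer7, whereas the submitters' processing notes name GRCz10 and danRer10. Libraries came from a stranded kit, and the strand setting of the counting was not given in the sources used here. The authors deposited raw counts and RPKM (per gene length and library size) in 1 table whose rows hold at least 12 counts. Its columns of the authors' own comparison (log2 fold change, average level, likelihood ratio, p-value and FDR) were not used. RUVSeq, used by the authors, was not run.

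Of 12418 gene rows, 20 repeats were dropped; 12381 genes with at least 10 counts over 5 libraries were tested. R 4.3.3 was used with edgeR 4.0.16 (quasi-likelihood test, TMM), DESeq2 1.42.0 and limma 3.58.1, after a check on simulated counts. Log2 fold changes are SBS over sham. The 70 spike-ins stayed out of library sizes.

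Members and lists were chosen with earlier results of these data known. Values were given for called members, for the 20 largest of 25 members whose SBS libraries lay all above or all below sham (log2 fold change of at least 1.5 in size, 1 CPM in a library), for the 2 most abundant per role and for those with SBS libraries on opposite sides of the sham mean by 1 or more. Other members with values in the text (such as csf3a, il12ba, ifng1-1, il7r, tnfb, il6st, ifngr1 and ackr3b) were chosen after their values were seen. From the other lists, the plan named the called genes and the most abundant gene of each. Further genes of those lists (such as stat3, stat4, csf1ra and csf3r) were named outside the plan. Of 97 members, 96 matched RefSeq, whose assembly differs and gave names and gene order only. No sequence was used here.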

Additional observations from a re-analysis of the deposited data

Results flagged for a closer look

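The ERCC spike-ins, synthetic RNAs added to each library, took 1.72% of counted reads in SBS replicate 1 and 2.43% in SBS replicate 3, against 0.809%, 0.663% and 0.791% in sham replicates 1, 2 and 3. These rows entered no comparison, and both SBS shares lay above every sham share. The study describes 2 ERCC mixes that hold the same sequences at differing concentrations. Which mix each library received was not given in the sources used here, so the shares may not compare equal spike-ins.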

How the results depend on the processing

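With 2 SBS libraries, calls depended on the test and on single libraries. The number of members called higher, 1 with edgeR's quasi-likelihood test, was 27 with its likelihood ratio test, 26 with DESeq2's Wald test, 2 with limma on log2(RPKM + 0.1), 21 with all 6 columns, 0 with the replicate block, and 0 to 32 when each library was left out. The number called lower, 0 with the quasi-likelihood test, was 4 with the likelihood ratio test, 3 with the Wald test, 2 with limma on log2(RPKM + 1) or log2(RPKM + 0.1), 4 with all 6 columns, 1 (il7r) with no limit on the fold change, and 0 to 9 when each library was left out. The median log2 fold change of the members, 0.87, was 0.19 to 1.00 across the fits that left out a library, with 0.19 without SBS replicate 1. DESeq2 size factors, filterByExpr (88 members tested), no filter and SBS replicate 1 counts halved, an alternative chosen after seeing the data, kept the counts at 1 and 0. Log2 fold changes changed sign for 23 members without SBS replicate 1, 13 without SBS replicate 3, and 3, 1 and 0 without sham replicates 1, 2 and 3. The shares of all genes that changed sign are not given here. Over the fits that left out a library, those given in the text ran from -1.16 to 2.27 for cxcr4b, -2.55 to 7.26 for csf3a, -0.61 to 3.75 for tnfb, -0.595 to 3.2 for il13ra2, -0.0533 to 3.07 for il10ra, -0.703 to 1.62 for lifra, -0.513 to 3.03 for cxcr3.1, -0.0579 to 3.33 for cxcr3.3, -0.534 to 1.8 for il2rga, -0.153 to 0.492 for il2rgb, -0.435 to 0.8 for cxcl12a, -0.22 to 2.17 for il4, -1.95 to 0.127 for ccr9a, -1.67 to 0.215 for cxcl19, -1.14 to 0.187 for crfb17 and -1.38 to 0.836 for ifngr1, each lowest without SBS replicate 1. They ran from -0.0674 to 1.08 for ccl19b, -0.665 to 1.16 for tnfsf10, -0.961 to 2.85 for ifng1-1, -0.421 to 3.19 for il17a/f3, -0.863 to 0.948 for il13, -2 to 0.017 for il20ra and -1.15 to 0.119 for ifnlr1, each lowest without SBS replicate 3. With the replicate block cxcl12a was -0.0667 and ifngr1 -0.252, and ifngr1 was -0.191 and -0.231 with limma on log2(RPKM + 1) and log2(RPKM + 0.1), against 0.31 and 0.11 for these genes with all libraries. The cause was not tested.

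By their labels, same-numbered SBS and sham libraries share only a number. Their deviations correlated at -0.114 (number 1) and -0.12 (number 3). With 2 SBS libraries, the deviations of SBS replicate 3 mirror those of SBS replicate 1, so these values cannot decide whether libraries were paired. In the fit with the replicate block, sham replicate 2 had no SBS partner and did not inform the difference between groups, which left little power. That fit called 0 members and 0 genes, with 17 members, or 17.5%, at an unadjusted p under 0.05, beside 15.5% of all genes. Without any 1 sham library 0 genes were called, with 25, 26 and 25 members at an unadjusted p under 0.05 without sham replicates 1, 2 and 3 (25.8%, 26.8% and 25.8%), beside 17.9%, 21.5% and 19.7% of all genes.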
